A study of Homo sapiens with 6 samples.

Results

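The genes examined were 10 genes of cellular iron storage and transport, named by symbol with no threshold on their values, out of 62696 genes counted in each library. They comprised the ferritin subunits FTH1 and FTL, the ferritin cargo receptor NCOA4, the transferrin receptor TFRC, the ferric reductase STEAP3, the iron transporters SLC11A2 and SLC40A1, the haem-degrading enzyme HMOX1, and the iron regulatory proteins ACO1 and IREB2. RNA-Seq was performed in DMS53, an established small cell lung cancer (SCLC) cell line of neuroendocrine (NE) phenotype, to examine a role of the transcription factor ONECUT2 (OC2) in SCLC cell plasticity. The 3 control libraries came from cells transduced with an empty lentiviral vector, and the 3 OC2-OE libraries from cells transduced with a vector for constitutive expression of mGFP-tagged OC2. All cells were selected with puromycin and grown in the same medium. Both groups were transduced, selected populations of 1 cell line, without an untransduced group. The study describes the libraries of a group as independent experiments, but the sources do not say whether these were separate transductions, so that p-values measure the spread between these libraries.

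Cells take up iron bound to transferrin through TFRC, reduce it in endosomes and pass it to the cytosol. Iron that is not used is stored in ferritin, a shell of heavy and light subunits, or leaves the cell through ferroportin, the product of SLC40A1. When iron is scarce, the iron regulatory proteins bind hairpins called iron-responsive elements in the mRNAs, which blocks translation of ferritin and ferroportin and protects the TFRC mRNA from decay. Ferritin and HMOX1 are also known targets of the transcription factor NRF2, and SCLC is known for rapid division, which uses iron.

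The iron-responsive elements are shown first, since a strict pattern for them matched the mRNAs of 4 of the 10 genes. The pattern was searched over whole protein-coding transcripts of GENCODE release 29 on GRCh38, coding sequence and untranslated regions (UTRs) alike. The pattern was an unpaired C, a paired arm of 5 bases, the 6-base loop CAGTGN, and the other arm, with G-T pairs allowed. It was found in 291 of 19669 coding genes (1.48%) and at 7 sites in the 10 genes. Each line below gives 30 bases of the mRNA strand from 5′ to 3′, written with T, and the capitals mark the loop.
FTH1 site 1: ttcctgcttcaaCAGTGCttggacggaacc
FTL site 1: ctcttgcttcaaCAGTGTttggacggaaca
SLC40A1 site 1: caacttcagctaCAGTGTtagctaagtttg
TFRC site 1: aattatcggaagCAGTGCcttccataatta
TFRC site 2: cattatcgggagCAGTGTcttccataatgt
TFRC site 3: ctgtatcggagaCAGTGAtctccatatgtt
TFRC site 4: aattatcgggaaCAGTGTttcccataattt

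The FTH1 site lay in the 5′ UTR at chr11:61967573-61967602 (minus strand), in 7 of 8 coding transcripts. The FTL site lay in the 5′ UTR at chr19:48965335-48965364 (plus strand), in the only coding transcript. The SLC40A1 site lay in the 5′ UTR at chr2:189580660-189580689 (minus strand), in 1 of 5 coding transcripts. The TFRC sites all lay in the 3′ UTR on the minus strand, in 3 of 4 coding transcripts, at chr3:196050978-196051007, chr3:196050574-196050603, chr3:196050509-196050538 and chr3:196050462-196050491. The pattern was not found in SLC11A2, HMOX1, IREB2, ACO1, NCOA4 or STEAP3. A match describes letters and not a bound site, and the pattern does not cover every known element: a variant of the SLC11A2 mRNA is known to carry one in its 3′ UTR, which the pattern missed.

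In the libraries, FTH1, FTL, SLC40A1, SLC11A2 and HMOX1 were higher in OC2-OE, and TFRC and IREB2 were lower. With edgeR's quasi-likelihood test and a threshold of 0.001 on the Benjamini-Hochberg adjusted p, 7 of the 10 genes changed, beside 56.5% of the 17307 tested genes. Of these, 5 rose (background 27.8%) and 2 fell (background 28.7%). The share that changed was therefore near the background, as it was at a threshold of 0.05 (8 of the 10 genes, background 71.4%). A log2 fold change of at least 1 was reached by 4 genes, all higher, beside 8.29% of all genes tested that were called and higher by that size. The median log2 fold change was 0.42 over the 10 genes and 0.01 over all genes tested.

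The depth and the labels were checked before the genes were compared. The libraries held between 16533284 and 19099337 counted read pairs. ONECUT2 had 394 to 465 counts in the control libraries and 68853 to 74031 in the OC2-OE libraries. Of the 8 NE markers, all were tested, and their summed level was 3073 to 3140 CPM (counts scaled to a common library size by the TMM method) in control and 4521 to 4567 CPM in OC2-OE. Within that list 3 genes rose and 4 fell. The granule protein SCG2 alone went from 801 ± 21.4 to 2273 ± 10.3 CPM (SD, n = 3), while the adhesion molecule NCAM1 fell from 164 ± 7.83 to 41.2 ± 1.85 CPM and the transcription factor INSM1 from 329 ± 7.23 to 86.6 ± 7.44 CPM. A CPM value is a share of the library, and in bulk RNA fewer expressing cells and less RNA per cell cannot be told apart.

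**Figure D1:**
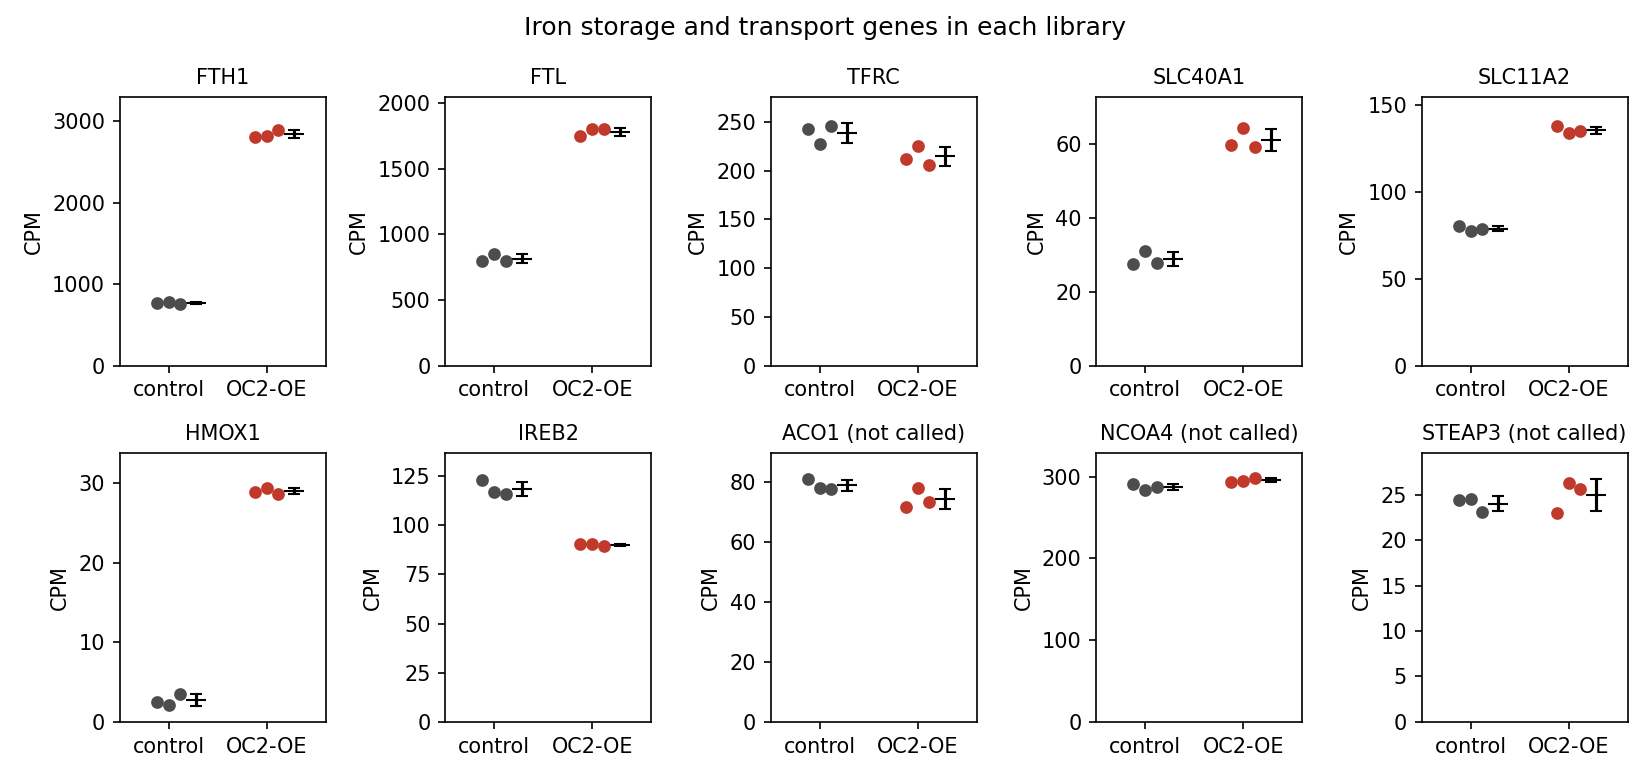
CPM of each of the 10 genes (y axis, from 0) in the 3 control (grey) and 3 OC2-OE (red) libraries, with the mean and SD in black. The 5 genes that rose show OC2-OE points well above control, while TFRC and IREB2 are lower and ACO1, NCOA4 and STEAP3 did not pass the threshold.

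FTH1 (ENSG00000167996.16, chr11:61959718-61967634, minus strand) encodes the heavy subunit of ferritin, which oxidizes iron for storage. Its level was 773, 786 and 755 CPM in control replicates 1 to 3, and 2798, 2818 and 2894 CPM in OC2-OE replicates 1 to 3. Every OC2-OE library lay far above every control library, and the spread within each group was small beside that gap. The mean rose from 771 ± 15.5 to 2837 ± 50.4 CPM (SD, n = 3), a fitted 3.68-fold difference (log2 fold change 1.88, standard error 0.019, edgeR adjusted p = 1.4e-110). The counts summed over 3 libraries were 39865 and 155188.

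FTL (ENSG00000087086.15, chr19:48965309-48966879, plus strand) encodes the light subunit, which helps to form the mineral core. It was at 794, 852 and 798 CPM in the control libraries and at 1746, 1798 and 1798 CPM in the OC2-OE libraries. The groups did not overlap, and the largest gap within a group was that of control replicate 2 to the other control libraries. The mean rose from 815 ± 32.2 to 1781 ± 30.0 CPM (SD, n = 3), and the log2 fold change was 1.13 (standard error 0.020, edgeR adjusted p = 1.75e-67). Both subunits together took 0.156% ± 0.0044 of all counts in control and 0.469% ± 0.0075 in OC2-OE (SD, n = 3).

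The subunits rose by unequal amounts. The ratio of FTH1 to FTL, in counts per kilobase of exon within a library, was 0.423, 0.401 and 0.411 in control and 0.697, 0.681 and 0.700 in OC2-OE. This ratio does not depend on the normalization between libraries, and it was higher in each OC2-OE library than in any control library. It was 1.68-fold higher on average (log2 change 0.75, two-sided exact permutation p = 0.1, the smallest that 3 against 3 libraries allow). The confidence intervals of the log2 fold changes of FTH1 (95%, 1.84 to 1.92) and FTL (1.09 to 1.17) did not overlap.

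Which subunit was the more abundant depended on the length used. With the union of all exons (2004 bases for FTH1 and 871 for FTL), FTL was above FTH1 in both groups. With the length of the principal transcript (1229 and 878 bases), an alternative chosen after seeing the data, the ratio of FTH1 to FTL within libraries was on average 0.677 in control and 1.14 in OC2-OE.

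NCOA4 (ENSG00000266412.6, chr10:46005088-46030623, minus strand) encodes the receptor that delivers ferritin to autophagosomes so that its iron is released. Its level was 291, 284 and 288 CPM in control and 294, 295 and 299 CPM in OC2-OE. The OC2-OE libraries all lay above the control libraries, but by little, and the difference did not pass the threshold (log2 fold change 0.04, 95% interval -0.01 to 0.09, edgeR adjusted p = 0.135). With library size as the only scaling, the log2 fold change was 0.09 and the adjusted p 0.00059, which passed. NCOA4 was among 8 of the 10 genes whose groups did not overlap, beside 73.2% of all genes tested.

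TFRC (ENSG00000072274.14, chr3:196012511-196082153, minus strand) encodes the receptor that brings transferrin into the cell. It was at 243, 227 and 246 CPM in control and at 212, 225 and 206 CPM in OC2-OE. The groups did not overlap, although control replicate 2 and OC2-OE replicate 2 were close. The mean fell from 239 ± 9.95 to 214 ± 9.71 CPM (SD, n = 3), a fitted change of -10.2% (log2 fold change -0.16, standard error 0.029, edgeR adjusted p = 1.51e-06). Within libraries, the ratio of TFRC to FTH1 in counts per kilobase was 0.0363, 0.0334 and 0.0375 in control and 0.00874, 0.00921 and 0.00821 in OC2-OE. It was thus lower in every OC2-OE library, with a log2 change of -2.03 (two-sided exact permutation p = 0.1, the smallest possible here).

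STEAP3 (ENSG00000115107.20, chr2:119223831-119265652, plus strand) encodes the endosomal reductase that acts on iron released from transferrin. Its level was 24.4, 24.6 and 23.1 CPM in control and 23.0, 26.3 and 25.6 CPM in OC2-OE. The groups overlapped, and the log2 fold change of 0.05 did not pass the threshold (95% interval -0.08 to 0.18, edgeR adjusted p = 0.491).

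SLC11A2 (ENSG00000110911.17, chr12:50979401-51028566, minus strand) encodes DMT1, the transporter that moves ferrous iron into the cytosol. It was at 80.2, 77.3 and 78.6 CPM in control and at 138, 134 and 135 CPM in OC2-OE. The groups lay far apart relative to their spread. The mean rose from 78.7 ± 1.46 to 135 ± 2.03 CPM (SD, n = 3), which is 0.78 on the log2 scale (standard error 0.036, edgeR adjusted p = 5.75e-42). SLC11A2 thus rose and TFRC fell, while the change of STEAP3 was not detectable with this spread.

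SLC40A1 (ENSG00000138449.11, chr2:189560590-189583758, minus strand) encodes ferroportin, the exporter of cellular iron. Its level was 27.6, 31.1 and 27.9 CPM in control and 59.6, 64.3 and 59.1 CPM in OC2-OE. All OC2-OE libraries were above all control libraries, and replicate 2 was the highest of each group. The mean rose from 28.9 ± 1.93 to 61.0 ± 2.85 CPM (SD, n = 3), or 1.08 on the log2 scale (standard error 0.053, edgeR adjusted p = 7.06e-39).

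HMOX1 (ENSG00000100292.18, chr22:35380361-35394214, plus strand) encodes haem oxygenase 1, the inducible enzyme that releases iron from haem. It had the largest rise of the 10 genes, from a low level of 46, 35 and 58 counts in control to 553, 509 and 522 counts in OC2-OE. On the CPM scale these were 2.46, 2.09 and 3.57 against 28.9, 29.4 and 28.7. The control libraries differed among themselves in proportion more than the OC2-OE libraries, but all lay far below them. The mean rose from 2.71 ± 0.767 to 29.0 ± 0.373 CPM (SD, n = 3), a fitted 10.7-fold difference (log2 fold change 3.42, standard error 0.11, edgeR adjusted p = 2.25e-57). Among all genes tested, HMOX1 had the rise of rank 119.

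**Figure D2:**
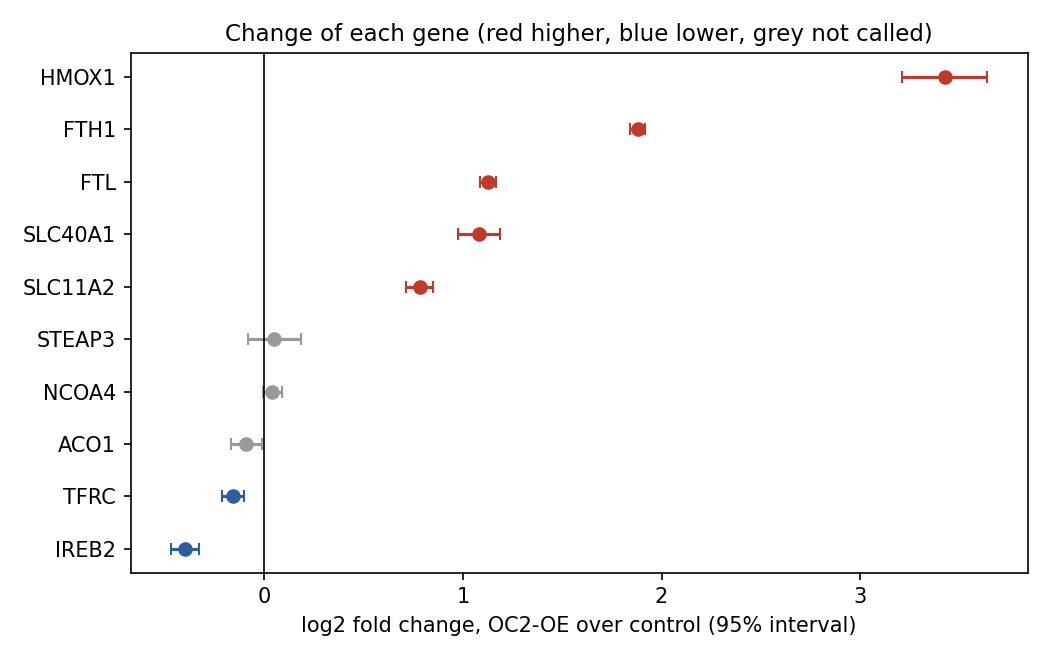
Log2 fold change of OC2-OE over control for each of the 10 genes, with its 95% confidence interval (x axis), red for higher, blue for lower and grey for not called. HMOX1 is at 3.42, FTH1 at 1.88, FTL at 1.13 and SLC40A1 at 1.08, while IREB2 at -0.40 is the lowest.

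IREB2 (ENSG00000136381.13, chr15:78437431-78501453, plus strand) encodes iron regulatory protein 2, which is degraded when iron is plentiful. Its level was 123, 117 and 116 CPM in control and 90.2, 90.2 and 89.6 CPM in OC2-OE. The OC2-OE libraries were nearly equal and all below control. The mean fell from 118 ± 3.79 to 90.0 ± 0.355 CPM (SD, n = 3), a fitted change of -24.0% (log2 fold change -0.40, standard error 0.036, edgeR adjusted p = 3.28e-19).

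ACO1 (ENSG00000122729.19, chr9:32384603-32454769, plus strand) encodes iron regulatory protein 1, which acts as a cytosolic aconitase when it holds an iron-sulfur cluster. It was at 81.1, 77.9 and 77.8 CPM in control and at 71.6, 78.0 and 73.4 CPM in OC2-OE. OC2-OE replicate 2 lay within the control range, and the difference did not pass the threshold (log2 fold change -0.09, 95% interval -0.17 to -0.01, edgeR adjusted p = 0.0434). The ratio of ACO1 to IREB2 in counts per kilobase was 0.946, 0.954 and 0.962 in control and 1.14, 1.24 and 1.17 in OC2-OE. It was higher in each OC2-OE library, with a log2 change of 0.31 (two-sided exact permutation p = 0.1, the smallest possible here). Which of these genes had the higher level depended on the length used, since with the principal transcript length IREB2 was above ACO1 in both groups (76.0 against 43.1 in control and 59.4 against 41.8 in OC2-OE, on the TPM scale).

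**Figure D3:**
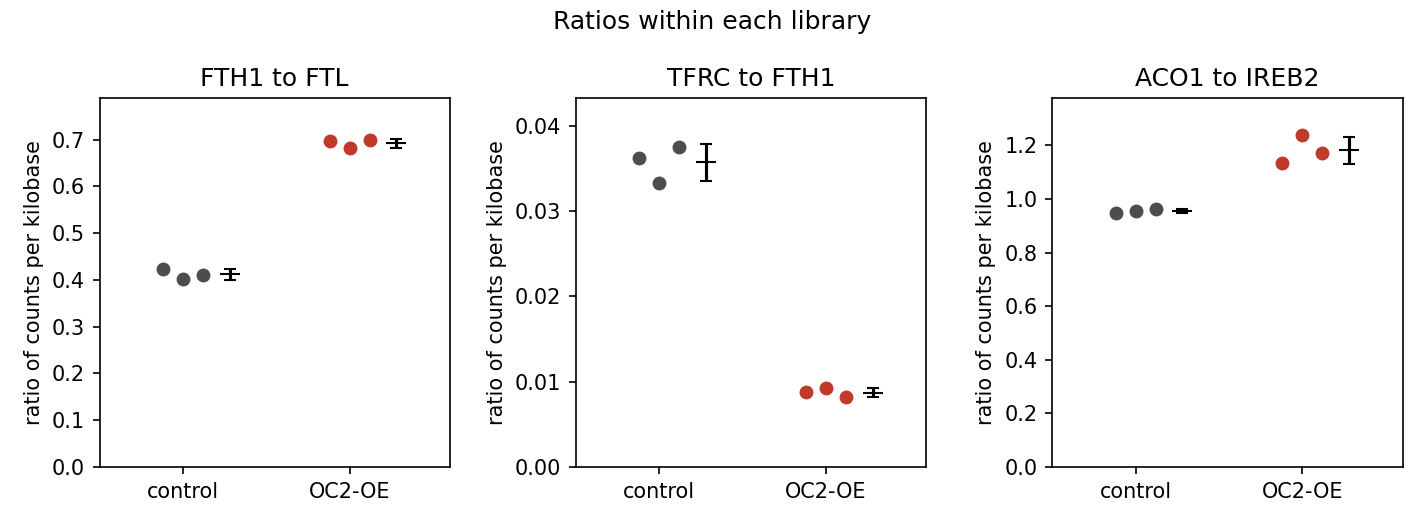
Ratios of counts per kilobase of exon within each library (y axis, from 0) for FTH1 to FTL, TFRC to FTH1 and ACO1 to IREB2, with control in grey, OC2-OE in red and the mean and SD in black. In each panel the 3 OC2-OE libraries do not overlap the 3 control libraries.

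Levels were compared between genes per length, as TPM, a share of all transcripts computed from the union of exons. In control the order was FTL (3814 ± 136 TPM), FTH1 (1570 ± 24.0), NCOA4 (294 ± 4.73), TFRC (56.0 ± 2.58), IREB2 (44.7 ± 1.40), ACO1 (42.6 ± 1.03), SLC11A2 (32.5 ± 0.677), SLC40A1 (27.9 ± 1.76), STEAP3 (21.5 ± 0.614) and HMOX1 (4.79 ± 1.38), each as SD with n = 3. No neighbours in this order overlapped between libraries. In OC2-OE the ferritin subunits and NCOA4 were again the highest, and SLC40A1 (60.7 ± 2.85 TPM), SLC11A2 (57.4 ± 0.852 TPM) and HMOX1 (52.7 ± 0.697 TPM) came next, above TFRC (51.7 ± 2.36 TPM). HMOX1 and TFRC overlapped between libraries. With the principal transcript length, SLC11A2 was above IREB2 and ACO1 in control, overlapping IREB2 between libraries, and TFRC was above SLC11A2, SLC40A1 and HMOX1 in OC2-OE, so the order depended on the length used.

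The other genes of iron and haem handling were taken from lists covering 72 genes, of which 62 were tested. Of these, 25 rose, 17 fell and 20 did not pass the threshold, beside 56.5% called among all genes tested. Their median log2 fold change was 0.02. Each list below is to be read beside the 27.8% of all genes tested that rose and the 28.7% that fell.

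Among the uptake genes, 7 of 10 tested rose and 2 fell, with a median log2 fold change of 1.24. LCN2 passed the filter on low counts only through OC2-OE, and without it, an alternative added after seeing the data, 6 of 9 rose, with a median of 0.95. CYBRD1, a ferric reductase that was not called, also reached that filter only with the OC2-OE libraries and stayed among these 9. It had 13, 8 and 17 counts in control and 23, 24 and 28 in OC2-OE. With at least 10 counts required in every library, which left out LCN2 and CYBRD1, 6 of 8 rose, with a median of 1.24. SLC22A17, a receptor for the iron-carrying lipocalin LCN2, rose from 6.19 ± 1.09 to 43.8 ± 0.657 CPM (SD, n = 3; log2 fold change 2.83, edgeR adjusted p = 5.27e-62). LCN2 itself had 1 count over the control libraries and 196 over the OC2-OE libraries, a ratio of 185 with a 95% counting interval of 32.8 to 7350. That count was in control replicate 3, and without this library LCN2 was at least 42.3-fold higher in OC2-OE, against a floor of 3 counts over the other control libraries. LTF, the iron-binding lactoferrin, fell from 7.67 ± 0.302 to 2.36 ± 0.243 CPM (log2 fold change -1.70, edgeR adjusted p = 4.15e-19). The STEAP3 relatives STEAP1, STEAP2 and STEAP4 rose by 1.66, 1.52 and 1.56 on the log2 scale, beside 0.05 for STEAP3.

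Of the export and hepcidin genes, 3 of 8 had counts enough to be tested. HFE, a regulator of hepcidin that binds the transferrin receptor, rose by 1.02 on the log2 scale (standard error 0.077), and NEO1, a receptor in the same pathway, rose by 0.39 (standard error 0.057). The hormone hepcidin, HAMP, had 1 count over each group, and the ferroxidases HEPH and CP, partners of ferroportin, had 3 and 5 counts in control and 1 and 10 in OC2-OE.

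Among the iron chaperones and the regulators of iron regulatory proteins, 3 of 5 fell and 2 did not pass the threshold, of which 1 rose under other settings (library size only, upper-quartile normalization, at least 10 counts in every library, or a threshold of 0.05). GLRX3, a cytosolic glutaredoxin that handles iron-sulfur clusters, had a log2 fold change of -0.49, HERC2, a ubiquitin ligase with near-identical partial copies that could share its reads, of -0.32, and PCBP1, which delivers iron to ferritin, of -0.30. FBXL5, which targets IREB2 for degradation when iron is present, was at 61.3 ± 2.25 and 61.5 ± 1.71 CPM (SD, n = 3; log2 fold change 0.00, edgeR adjusted p = 0.947).

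Of the mitochondrial iron and iron-sulfur genes, 5 of 18 rose, 4 fell and 9 did not pass the threshold, shares at or below the background. SLC25A37, the mitochondrial iron importer, rose by a log2 fold change of 1.08 (standard error 0.11), and GLRX5, a mitochondrial glutaredoxin, had one of -0.49 (standard error 0.046). ABCB8, a mitochondrial transporter, rose by 0.40 on that scale. Of the haem synthesis genes, 3 of 8 rose and 1 fell, and the 4 called are no larger a share than the 56.5% called over all genes tested. FECH, which inserts iron into protoporphyrin, rose from 121 ± 1.36 to 198 ± 0.828 CPM (SD, n = 3; log2 fold change 0.71, edgeR adjusted p = 1.91e-44), and UROS and ALAD, enzymes of earlier steps, rose by 0.36 and 0.34.

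Of the genes for haem breakdown and transport other than HMOX1, 2 of 7 rose and 4 fell. FLVCR2, with 7, 5 and 11 counts in the OC2-OE libraries, passed the filter on low counts only through control. With at least 10 counts required in every library, which left out FLVCR2, 2 rose and 3 fell. BLVRB, a biliverdin reductase that acts downstream of haem oxygenase, rose from 19.3 ± 1.96 to 86.7 ± 2.98 CPM (SD, n = 3; log2 fold change 2.17, edgeR adjusted p = 1.56e-67). HMOX2, the constitutive haem oxygenase, fell from 100.4 ± 0.786 to 79.2 ± 2.07 CPM (log2 fold change -0.34, edgeR adjusted p = 1.49e-14), opposite to HMOX1. SLC48A1, which moves haem out of endosomes, rose by a log2 fold change of 0.92, and FLVCR2, a haem and choline transporter with 91 and 23 counts, had one of -2.05 (standard error 0.34) and shares 6.76% of its exon bases with TTLL5 on the same strand.

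Regulators of antioxidant response genes were also examined. NFE2L2, which encodes NRF2, rose by a log2 fold change of 0.33, BACH1, its competitor and a repressor of HMOX1, by 0.32, and MAFF, a small MAF partner, by 0.60. In this list 4 of 6 rose and 2 did not pass the threshold, of which 1 fell without control replicate 2 or at a threshold of 0.05. Exons of NFE2L2 overlap on the same strand, by 13.6% of their length, with those of ENSG00000213963, so reads there could be assigned to either. Among 5 other transcripts described as carrying an iron-responsive element, 2 rose (1 without control replicate 2 or without OC2-OE replicate 3) and 3 fell, the latter including EPAS1, a hypoxia-inducible factor (log2 fold change -0.95), and CDC14A, a phosphatase (-0.56).

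**Figure D4:**
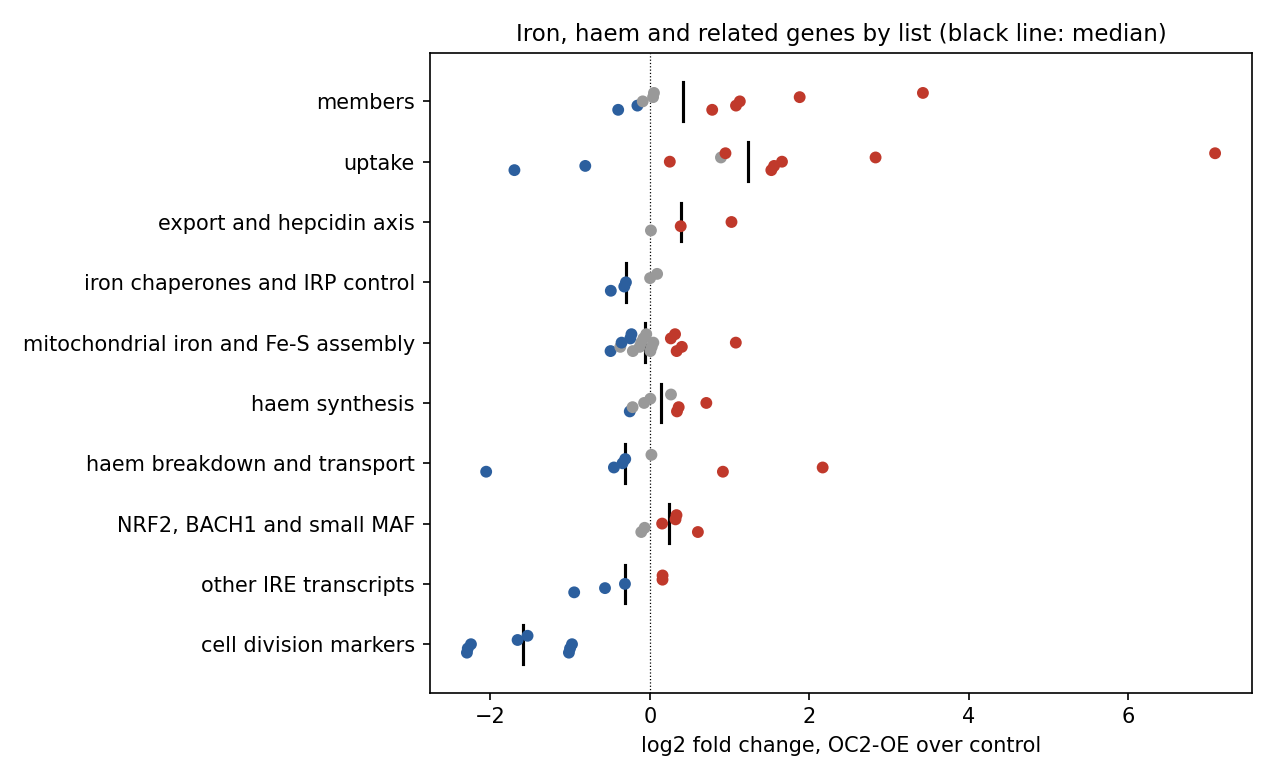
Log2 fold change of OC2-OE over control (x axis) for each tested gene of the 10 genes and of the lists of related genes, red for higher, blue for lower and grey for not called, with the median of each list as a black line. Among the lists drawn, the median is highest for uptake, 1.24 (0.95 without LCN2), and lowest for the cell division markers, -1.60.

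Markers of cell division differed between the groups as well. All 8 of 8 tested fell, with a median log2 fold change of -1.60, and their summed level was 1751 to 1812 CPM in control and 536 to 546 CPM in OC2-OE. MKI67, TOP2A and CCNB1 had log2 fold changes of -2.28, -2.29 and -2.24. The part of this difference in the levels of the iron genes was not tested.

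Markers of other cell types were summed in the same way. Erythroid markers, of which none of 7 passed the filter on low counts, summed to 0.179 to 0.375 CPM in control and 0.165 to 0.209 CPM in OC2-OE, with HBB and GYPB among those at 0 counts. Macrophage markers summed to 4.23 to 5.02 CPM in control and 8.48 to 9.71 CPM in OC2-OE. Of these, 2 of 7 were tested, LYZ and CD14, both higher, and TYROBP was at 0 counts. LYZ passed the filter on low counts only through OC2-OE. Fibroblast markers summed to 21.2 to 23.9 and 28.1 to 32.1 CPM, with 2 of 3 tested higher. Endothelial markers summed to 12.7 to 15.1 and 4.17 to 4.73 CPM, with 2 of 3 tested lower. PDGFRB, among the higher fibroblast markers, passed that filter only through OC2-OE. CDH5, among the lower endothelial markers, passed it only through control. The part of all these markers in the results was not tested.

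FTH1 and FTL have many processed pseudogenes, whose reads can be confused with those of the parent. The 25 FTH1 pseudogenes held 149 counts in control and 516 in OC2-OE, which was 0.374% and 0.333% of the FTH1 counts, and the most counted was FTH1P20 with 42 and 142. The 16 FTL pseudogenes held 65 and 118 counts, 0.155% and 0.121% of those of FTL. Reads of the parents that the counting left out as ambiguous between copies cannot be seen in these counts.

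The promoters of the genes, 250 bases before to 50 after each start in RefSeq on GRCh38.p14, were searched on both strands for 3 short motifs. The table held 13 promoters of 8 of the genes, without FTH1 and HMOX1. The ONECUT core ATTGAT was in 0 of 13, beside 6.26% of 35116 promoters, and the variant ATCGAT in 0 of 13, beside 0.763%. The antioxidant response element core TGACNNNGC was in 1 of 13, a promoter of NCOA4, beside 13.3% of all promoters. These counts describe the letters in these windows only.

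Among 7052 genes with a mean log2 CPM of at least 5, the profiles most like that of HMOX1 over the 6 libraries, by Euclidean distance of log2 CPM centred on the control mean, were those of BIRC3 (distance 0.521), NFKBIZ (0.599) and ZC3H12A (0.613), with log2 fold changes of 3.30, 3.60 and 3.23. For IREB2 they were SSRP1 (0.0294), ARNT (0.0347) and HOOK3 (0.0405), with log2 fold changes of -0.40, -0.41 and -0.39. With 1 contrast over 6 libraries, such likeness mainly reflects the size of the difference between the groups.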

How the data were processed

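Per the labels and file headers, the authors made strand-specific libraries of poly(A) RNA, aligned reads with STAR 2.7.9a to GRCh38 and counted read pairs on GENCODE 42 genes with featureCounts 1.6.0. The deposited values are raw counts per gene without normalization. Symbols matched 62672 of 62696 genes. In R 4.3.3, counts were scaled by TMM, filtered with filterByExpr and tested with edgeR 4.0.16 (robust quasi-likelihood, no covariate). A call is a Benjamini-Hochberg adjusted p under 0.001 over 17307 genes. Within-library ratios were compared by exact permutation tests over libraries. Standard errors were derived from each log2 fold change and its F statistic. The interval of a ratio of low counts covers counting error only. All of the 10 genes, the 3 genes of largest absolute change among those called on each list, and the 3 nearest profiles of the largest rise and fall were named, except for genes that are not reported here. STEAP1, STEAP2, STEAP4, CYBRD1, HMOX2, FBXL5, HAMP, HEPH and CP were added after their values were seen. The 10 genes and the lists were chosen with earlier results of these data known. Libraries of a group differed by 1.31 to 1.81 times the sampling variance, so none held the same reads as another. Repeat libraries of the same culture cannot be told from separate cultures by this value. Steps were tested on simulated data. The alternatives included DESeq2 1.42.0 and limma 3.58.1.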

Additional observations from a re-analysis of the deposited data

How the results depend on the processing

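Normalization, filter, test and left-out libraries were varied over 18 settings, and no result reversed in direction. Over those that refitted the genes, the log2 fold change was 1.86 to 1.93 for FTH1, 1.11 to 1.18 for FTL, 1.05 to 1.14 for SLC40A1, 0.77 to 0.83 for SLC11A2, 3.28 to 3.66 for HMOX1, -0.19 to -0.11 for TFRC and -0.42 to -0.35 for IREB2, and all 7 stayed under the threshold, TFRC with an adjusted p of at most 0.000967. NCOA4 passed with library size only (adjusted p 0.00059). When a change of at least 1 on the log2 scale was also required, 2999 genes, 10 of the 72 related genes and 4 of the 10 iron genes were called. With the replicate block, 9642 genes and 7 of the 10 were called, and library size only gave 54.7% of calls higher against 49.2%. The numbers did not pair libraries, since same-numbered libraries correlated at -0.00331, 0.0205 and 0.0146, although each library correlated best with its own number except replicate 1. Low counts limit HMOX1 in control, LCN2 and FLVCR2.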

Other observations

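BEST1, a chloride channel gene of the retinal pigment epithelium, lies on the strand opposite to FTH1 (chr11:61950063-61965515) and shares 1267 of the 2004 exon bases of FTH1 (63.2%). It was looked at after the values of FTH1 were seen. Its counts were 141, 118 and 124 in control and 586, 413 and 549 in OC2-OE. Every OC2-OE library was above every control library, and the log2 fold change was 1.93 (standard error 0.089, edgeR adjusted p = 1.42e-37), beside 1.88 for FTH1. As a share of the FTH1 counts of the same library, they were 0.961% ± 0.0578 in control and 0.993% ± 0.130 in OC2-OE (SD, n = 3). Whether these reads come from BEST1 or from FTH1 was not tested.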
